A study of Daphnia magna with 30 samples.

Results

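A short day of 8 h light and 16 h dark (8L:16D) was compared directly with the equinox day of 12 h light and 12 h dark (12L:12D) in the water flea *Daphnia magna*. The members were the 12 animals of the 30 in the experiment whose titles gave these photoperiods, with 6 animals for each, and the animals of the long-day control took no part in the fit. Each photoperiod had 3 exposure chambers with 2 animals each, and the letters A and B told the animals of a chamber apart. All animals were females of a single clone kept at 25 °C that had been raised under their photoperiod until they were 21 d old. They were taken whole, with the contents of the brood pouch, within 1 h of lights on, and each was hybridized to 1 single-colour Agilent array. The 3 chambers of a photoperiod stood in a single box under a single lamp, so box and photoperiod cannot be told apart. In RNA of whole animals, fewer cells of a type and less RNA per cell cannot be told apart either.

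Day length is a seasonal cue for *Daphnia*. Females reproduce clonally for most of the season, and shortening days, together with crowding and food, are known to favour males and resting eggs. An adult female also moults every few days, and each moult is tied to the release of a brood and the laying of the next clutch, so transcripts of cuticle and yolk proteins change through that cycle. In arthropods the clock protein period takes part in keeping daily time, and opsins carry the light signal. An array probe is a short oligonucleotide that captures 1 transcript, and its level is given here as the log2 of its signal relative to the 75th percentile of all probes of the same array, so that negative levels lie below that percentile.

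The probes of 10 called transcripts described below are shown 5′ to 3′ as the study's probe table lists them. The sequence is what each level below refers to and, for the transcript without a protein name, its only identity. The sequences were printed in lower case, with no part marked. Their positions in the genome were not analysed here.
DM00868P2, glucose dehydrogenase: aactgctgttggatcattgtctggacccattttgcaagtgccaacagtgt
DM09565P2, glucose-6-phosphatase: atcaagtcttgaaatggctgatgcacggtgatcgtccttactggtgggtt
DM10507P2, glucose-6-phosphatase: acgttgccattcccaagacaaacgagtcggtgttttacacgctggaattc
DM10142P2, serine proteinase: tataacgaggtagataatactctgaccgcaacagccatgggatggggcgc
DM01623P1, glutamine synthetase: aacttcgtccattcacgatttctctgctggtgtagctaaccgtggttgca
DM06370P1, medium-chain acyl-CoA dehydrogenase: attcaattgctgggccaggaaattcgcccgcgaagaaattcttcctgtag
DM04383P3, sorting nexin-4: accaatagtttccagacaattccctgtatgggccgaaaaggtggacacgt
DM04941P2, UDP-glucuronosyltransferase: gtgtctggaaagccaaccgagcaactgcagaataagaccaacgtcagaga
DM00120P2, copper-zinc superoxide dismutase-like protein: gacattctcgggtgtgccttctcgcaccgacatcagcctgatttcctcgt
DM15253P2, hypothetical protein: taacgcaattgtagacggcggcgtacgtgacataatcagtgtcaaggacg

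The arrays measured 14338 *D. magna* probes, of which between 11421 and 12895 per array were well above background, and the number of arrays limited the precision of every value. The 12 arrays lay on 7 slides, and 2 of the slides held both photoperiods. The mean profiles of 8L:16D and 12L:12D lay 54.5 log2 units apart over all probes. Dividing the 6 chambers into 3 and 3 in each of the 10 possible ways gave distances at least as large in 6 of 10 (exact permutation test, two-sided, p = 0.6, where the smallest possible p is 0.1). Animals of 8L:16D lay 151 ± 36.9 units from each other (SD over 15 pairs), those of 12L:12D 112 ± 33.4 units (SD over 15 pairs), and animals of different photoperiods 131 ± 38.4 units (SD over 36 pairs). The nearest neighbour of an animal had the same photoperiod for 6 of the 12 animals. The profiles as a whole therefore did not separate beyond the spread between chambers.

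Animals B of chambers 1 and 2 of 8L:16D stood apart from all others on the first 2 principal components, which held 43.4% and 23.9% of the variance. Animal 1B had the highest position on the first component, 111.0, and animal 2B the highest on the second, 124. The other 4 animals of 8L:16D lay between -65.7 and 36.5 on the first and no higher than animal 1A, at 29.02, on the second. All 6 animals of 12L:12D lay between -68.3 and 68.0 on the first and between -40.0 and 0.28 on the second. Between the chamber means of the photoperiods an exact permutation test (two-sided) gave p = 0.9 on the first component and p = 0.2 on the second, so that no separation was shown on either. The SD between animals was larger in 8L:16D than in 12L:12D for 10505 probes, or 73.3%, with a median of 0.41 against 0.29 on the log2 scale. Calls of named transcripts that were lost without the B animals of chambers 1 and 2 of 8L:16D are given below with the difference without them.

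**Figure D1:**
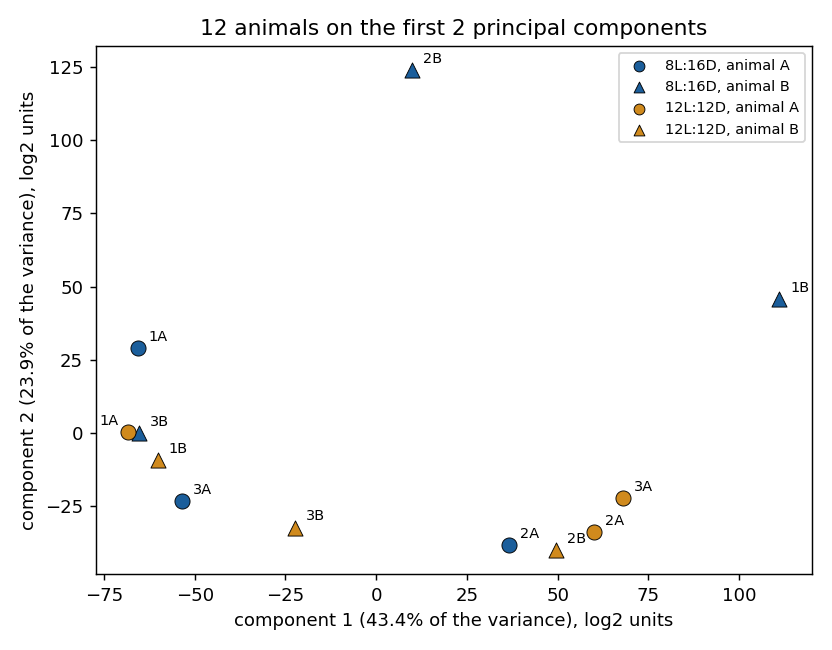
Positions of the 12 animals on the first 2 principal components of all probes, in log2 units, with 8L:16D in blue, 12L:12D in orange, circles for animals A and triangles for animals B, each labelled with its chamber number and letter. Animals 1B and 2B of 8L:16D lie apart, while the others of both photoperiods overlap.

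Each transcript was fitted with limma by photoperiod, letter and their interaction, and a transcript was counted as responding at an unadjusted p under 0.01 and as called when it also differed by at least 1.5-fold. Between 8L:16D and 12L:12D, 248 transcripts responded, which is 1.73% of all probes, and 143.38 would pass this threshold by chance. This fit counts the animals of a chamber separately. With the animals of each chamber averaged 128 responded, and with slide as a block 119, both fewer than expected by chance at this threshold. Of the 248, 156 (1.09%) were higher in 8L:16D and 92 (0.642%) lower. With the fold requirement 172 were called (1.2%), 115 higher (0.802%) and 57 lower (0.398%) in 8L:16D. After Benjamini-Hochberg adjustment 0 transcripts (0.0%) passed 0.05 in limma, the lowest adjusted p was 0.231, and 1053 had an unadjusted p under 0.05 where 717 were expected by chance. Over all probes the median difference was 0.01 on the log2 scale and 51.1% were higher in 8L:16D.

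**Figure D2:**
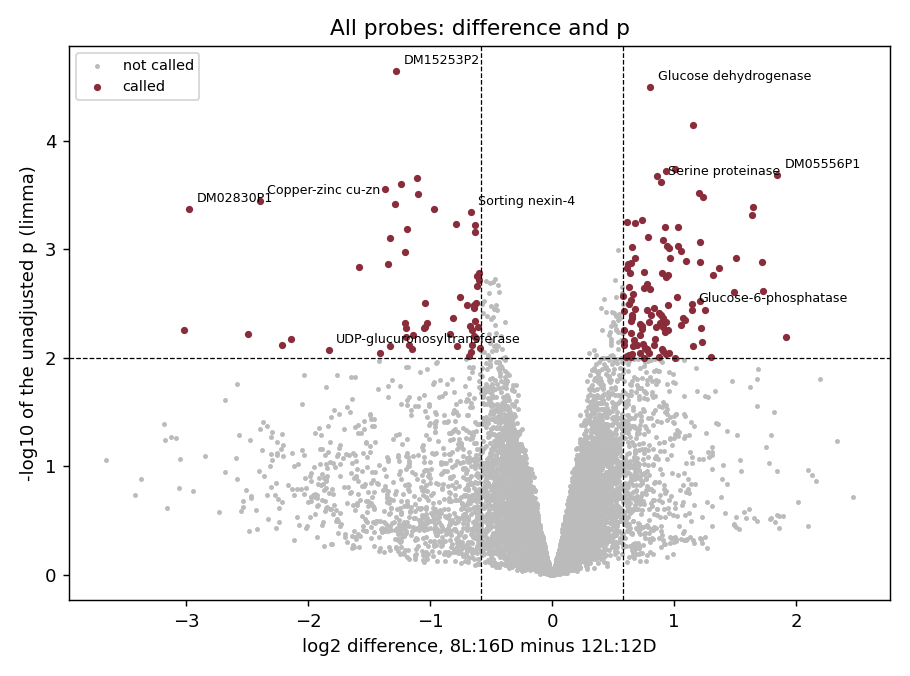
Log2 difference of each probe (8L:16D minus 12L:12D, horizontal axis) against -log10 of its unadjusted p from limma (vertical axis), with the 172 called probes in red. Dashed lines mark an unadjusted p of 0.01 and a 1.5-fold difference.

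The letters label animals chosen at random, and much of the count depended on letting the letter into the fit. With photoperiod alone, 167 transcripts responded (1.16%) and 98 were called, of which 88 were among the 172. Where the chamber number took the place of the letter, 182 responded and 111 were called. The letter itself gave 88 responding transcripts (0.614%) and its interaction with photoperiod 163 (1.14%). The fit takes the gap between A and B animals out of its error, so transcripts with a large, even gap are called more readily. Comparing the gaps of called transcripts with those of all probes therefore restates the call in part. Of the 172 called transcripts, 142 (82.6%) had the B animals of 8L:16D further from 12L:12D than the A animals, against 55.3% of all probes. The median gap between A and B animals of the called transcripts reached 0.80 in 8L:16D but 0.19 in 12L:12D on the log2 scale, against 0.25 and 0.17 over all probes. All B animals of 12L:12D lay on a single slide, and no slide held both letters of the same photoperiod. Letter and slide therefore cannot be told apart within a photoperiod, and a part of the slide in these gaps was not tested. Without the B animals of chambers 1 and 2 of 8L:16D and with photoperiod alone, a setting chosen after seeing the data, 102 transcripts were called and 38 of them were among the 172.

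**Figure D3:**
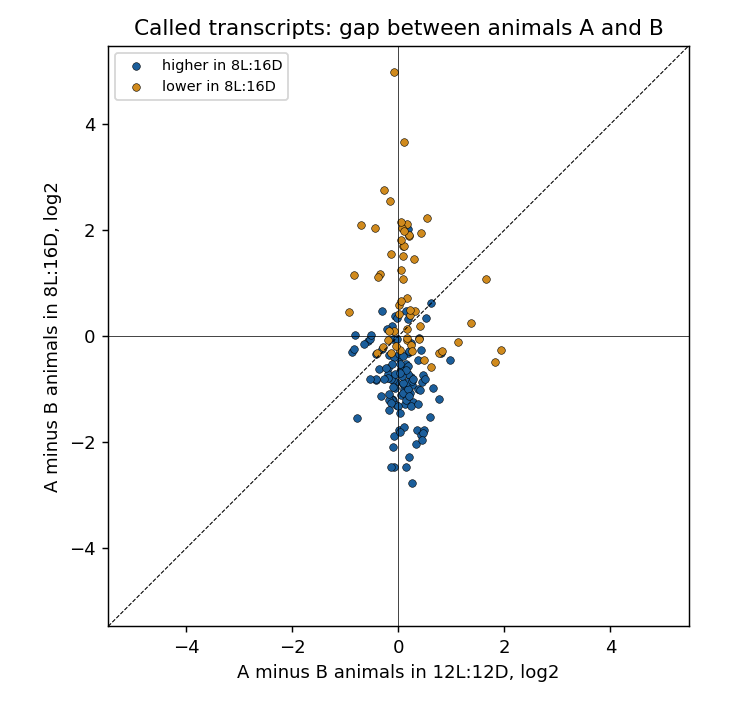
Difference between A and B animals in 12L:12D (horizontal axis) and in 8L:16D (vertical axis) for the 172 called transcripts, on the log2 scale, with transcripts higher in 8L:16D in blue and lower ones in orange. Most points spread along the vertical axis, with a median gap of 0.80 in 8L:16D against 0.19 in 12L:12D.

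Names came from the study's table of 958 probes, of which 498 carried a protein name. The remaining probes are given by their identifier. That table was chosen in part for differences of these same animals from the control, so its members are not independent of this comparison. In it 38 probes responded (3.97%) and 31 were called (3.24%), and 18 of the called probes had a protein name, 9 higher and 9 lower in 8L:16D. Of these 18, 16 had chamber means that did not overlap and signals well above background on at least 6 arrays. Chamber means did not overlap for 166 of all 172 called probes, so this share is no more than the call itself brings. Over all probes, chamber means did not overlap for 11.6%, 6.51% with 8L:16D higher and 5.13% with it lower. Individual animals of the photoperiods did not overlap for 56 probes (0.391%), and 21 of the 172 called probes were among them.

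Glucose dehydrogenase (DM00868P2) was the called transcript with a protein name that had the smallest p. The enzyme, which in insects oxidizes glucose to gluconolactone, had transcript levels from -3.64 through a median of -3.23 to -2.92 in the 6 animals of 8L:16D. In 12L:12D the levels ran from -4.29 through a median of -4.09 to -3.90. Every animal of 8L:16D lay above every animal of 12L:12D. The means were -3.26 ± 0.25 and -4.07 ± 0.14 (SD, 6 animals each), a 1.75-fold higher level in 8L:16D (log2 difference 0.81 ± 0.11 SE, limma adjusted p = 0.231). It was called under 21 of 22 alternatives, and the call was lost with the normexp background correction, which gave 0.32. Outside the comparison, its mean level under 4L:20D was -2.36 ± 0.22, against -4.71 ± 0.48 in the 16 h light control and -4.78 ± 0.38 in 20L:4D (SD, 6 animals each). The means of 8L:16D and 12L:12D thus lay between those of the shortest day and of the 2 longer ones.

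Glucose-6-phosphatase, which releases glucose from glucose-6-phosphate as the last step of glucose production, was measured by 2 probes, both higher in 8L:16D. The first, DM09565P2, had levels of 0.72, 1.48 and 2.79 (lowest, median and highest) in 8L:16D and of -0.06, 0.30 and 0.95 in 12L:12D. The second, DM10507P2, had 3.06, 3.83 and 5.31 in 8L:16D and 2.33, 3.08 and 3.47 in 12L:12D. For both probes 4 of the 6 animals of 8L:16D lay above all animals of 12L:12D, and the highest animal was 1B of 8L:16D. The differences were 1.14 ± 0.30 (SE; 2.21-fold, limma adjusted p = 0.48) and 0.95 ± 0.27 (1.94-fold, limma adjusted p = 0.497). Neither call held without chamber 1, 2 or 3 of 12L:12D in turn, with differences from 1.09 to 1.23 for the first and from 0.86 to 1.01 for the second. Without the 2 B animals that stood apart they were 0.84 and 0.65, and neither was called. The call of the second was also lost without chamber 3 of 8L:16D (1.05) and in the fit of photoperiod alone. With the animals of each chamber averaged, neither probe was called.

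A serine proteinase (DM10142P2), of a family that includes the digestive trypsins, had levels from -0.98 through -0.46 to 0.40 in 8L:16D and from -1.72 through -1.25 to -1.11 in 12L:12D. The 6 animals of each photoperiod did not overlap, and in 8L:16D each B animal was higher than the A animal of its chamber. It was 1.86-fold higher in 8L:16D (log2 difference 0.89 ± 0.16 SE, limma adjusted p = 0.321) and was called under 21 of 22 alternatives, all but slide as a block (0.56). Glutamine synthetase (DM01623P1), which forms glutamine from glutamate and ammonia, had levels of 4.51, 5.04 and 5.94 in 8L:16D and of 4.08, 4.49 and 4.94 in 12L:12D. Only the 3 B animals of 8L:16D lay above all animals of 12L:12D. Its difference was 0.63 ± 0.15 (SE; limma adjusted p = 0.442), and it fell short of the threshold with photoperiod alone, without chamber 1 of 8L:16D (0.55), without chamber 2 of 12L:12D (0.55) and without animals 1B and 2B of 8L:16D (0.34).

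The other 4 named transcripts called higher in 8L:16D included 3 that were dim in 12L:12D. Sphingosine-1-phosphate phosphatase (DM06782P2), which removes the phosphate from a lipid messenger, differed by 0.86 ± 0.15 (limma adjusted p = 0.321) and was well above background on 3 of the 6 arrays of 12L:12D. A low-density lipoprotein receptor-related protein (DM03506P1), of a family of receptors that take up lipoproteins, differed by 0.68 ± 0.14 (limma adjusted p = 0.321). In both, the 3 B animals of 8L:16D lay above every animal of 12L:12D while the A animals lay within its range or close to it. Without animals 1B and 2B the differences were 0.54 and 0.45 and were not called, and the call of the receptor was lost with photoperiod alone. A pre-mRNA-processing factor (DM02299P2) differed by 0.72 ± 0.20 and a UPF0364 protein (DM06277P1) by 0.64 ± 0.18. Both were well above background on 3 and 2 of the 6 arrays of 12L:12D against all 6 of 8L:16D, and each call was lost without chamber 2 (0.54 and 0.53) or chamber 3 (0.71 and 0.63) of 8L:16D or chamber 1 of 12L:12D (0.79 and 0.54), and for the first also without chamber 2 of 12L:12D (0.56) and with photoperiod alone. Without animals 1B and 2B their differences were 0.62 and 0.63 and were not called. On the arrays of 12L:12D where these 3 transcripts were not well above background their levels rest on background signal, and so does the size of the difference in part.

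Among transcripts lower in 8L:16D, sorting nexin-4 (DM04383P3), a protein of endosomal sorting, had levels from -3.96 through -3.72 to -3.50 in 8L:16D and from -3.25 through -3.12 to -2.79 in 12L:12D. The animals did not overlap. The log2 difference was -0.67 ± 0.13 (SE; 1.59-fold higher in 12L:12D, limma adjusted p = 0.321). Without chamber 1 of 12L:12D it was -0.56, under the fold threshold. The call was also lost with all 30 arrays, slide as a block, the normexp correction and the spike-in mean as a covariate. It held under 17 of 22 alternatives, over which the difference ran from -0.77 to -0.29. UDP-glucuronosyltransferase (DM04941P2), an enzyme that conjugates foreign compounds and hormones, had levels from -5.94 through -5.63 to -5.37 in 8L:16D and from -5.06 through -3.96 to -1.30 in 12L:12D. Here too the animals did not overlap, but animal 1B of 12L:12D, at -1.30, stood far above the other 5, of which the highest was at -3.87. The difference was -1.83 ± 0.56 (SE; 3.56-fold higher in 12L:12D, limma adjusted p = 0.56), and the call was lost without chamber 1, 2 or 3 of 8L:16D (-1.95, -1.85 and -1.70) or chamber 2 of 12L:12D (-2.09), and without animals 1B and 2B of 8L:16D (-1.93). The call was also lost with chamber as a random block and with the animals of each chamber averaged. The transcript was well above background on 5 of the 6 arrays of 8L:16D. Elsewhere its mean level was -6.36 ± 0.43 under 4L:20D, -2.21 ± 1.76 in the 16 h light control and -2.84 ± 1.34 in 20L:4D (SD, 6 animals each).

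Medium-chain acyl-CoA dehydrogenase (DM06370P1), which begins the mitochondrial breakdown of medium-chain fatty acids, had levels of -1.28, -0.94 and -0.30 in 8L:16D and of -0.43, -0.23 and -0.06 in 12L:12D. All but 1 animal of 8L:16D lay below the range of 12L:12D. The difference was -0.63 ± 0.13 (SE; 1.55-fold, limma adjusted p = 0.321), which fell under the fold threshold without chamber 1 of 12L:12D (-0.56) and was -0.51, and not called, without the 2 B animals that stood apart. Beta-1,4-galactosyltransferase (DM13265P2), which adds galactose to glycans, was lower by 0.70 ± 0.18 on the log2 scale (log2 difference -0.70, limma adjusted p = 0.478), with 5 of 6 animals of 8L:16D below all of 12L:12D. Its call was lost without chamber 3 of 8L:16D (-0.73) and without chamber 1 of 12L:12D (-0.60).

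The B animal of every chamber of 8L:16D also lay below the A animal in several transcripts lower in 8L:16D, medium-chain acyl-CoA dehydrogenase among them. The copper-zinc superoxide dismutase-like protein (DM00120P2), of an enzyme family that converts superoxide to hydrogen peroxide, was at 4.30, 5.21 and 3.71 in the A animals of chambers 1, 2 and 3 of 8L:16D and at -0.20, 0.72 and 1.71 in the B animals. In 12L:12D its levels ran from 4.03 through a median of 5.10 to 5.76. The A animals of 8L:16D thus overlapped with 12L:12D, or came close to it, and the B animals lay below it. The difference was -2.40 ± 0.45 (SE; 5.26-fold, limma adjusted p = 0.321), but the call was lost with photoperiod alone and the difference was -1.24, and not called, without animals 1B and 2B.

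The same held for vitellogenin fused with superoxide dismutase (DM01555P3), the yolk precursor of *Daphnia*, for Spatzle 6 (DM05187P3), of a family that in *Drosophila* holds ligands of Toll receptors, and for a cuticle protein (DM08522P1). Their differences were -1.20 ± 0.34 (limma adjusted p = 0.497), -1.17 ± 0.35 (limma adjusted p = 0.547) and -1.41 ± 0.44 (limma adjusted p = 0.564). With photoperiod alone none was called, and without animals 1B and 2B the differences were -0.64, -0.19 and -0.68. The chamber means of vitellogenin overlapped. Each of these calls was also lost without several single chambers, with differences from -1.13 to -0.92 for vitellogenin, from -1.12 to -1.004 for Spatzle 6 and from -1.63 to -1.10 for the cuticle protein. These were chambers 1 and 3 of 8L:16D and 2 and 3 of 12L:12D for vitellogenin, chambers 1 and 2 of both photoperiods for Spatzle 6, and chamber 1 of 8L:16D and every chamber of 12L:12D for the cuticle protein. A second probe of the vitellogenin fusion (DM00375P2) differed by 0.14 ± 0.26 and was not called. The remaining named call, a 4-coumarate-CoA ligase (DM02527P1), was added after its values were seen, since its chamber means overlapped. Its difference was -1.14 ± 0.33 (limma adjusted p = 0.509), with 4 of 6 animals of 8L:16D below all of 12L:12D and each B animal of 8L:16D below the A animal of its chamber. Its call was lost without chamber 1 or 3 of 8L:16D (-0.91 and -1.07), without chamber 1 or 3 of 12L:12D (-0.84 and -1.15) and without animals 1B and 2B (-0.99).

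**Figure D4:**
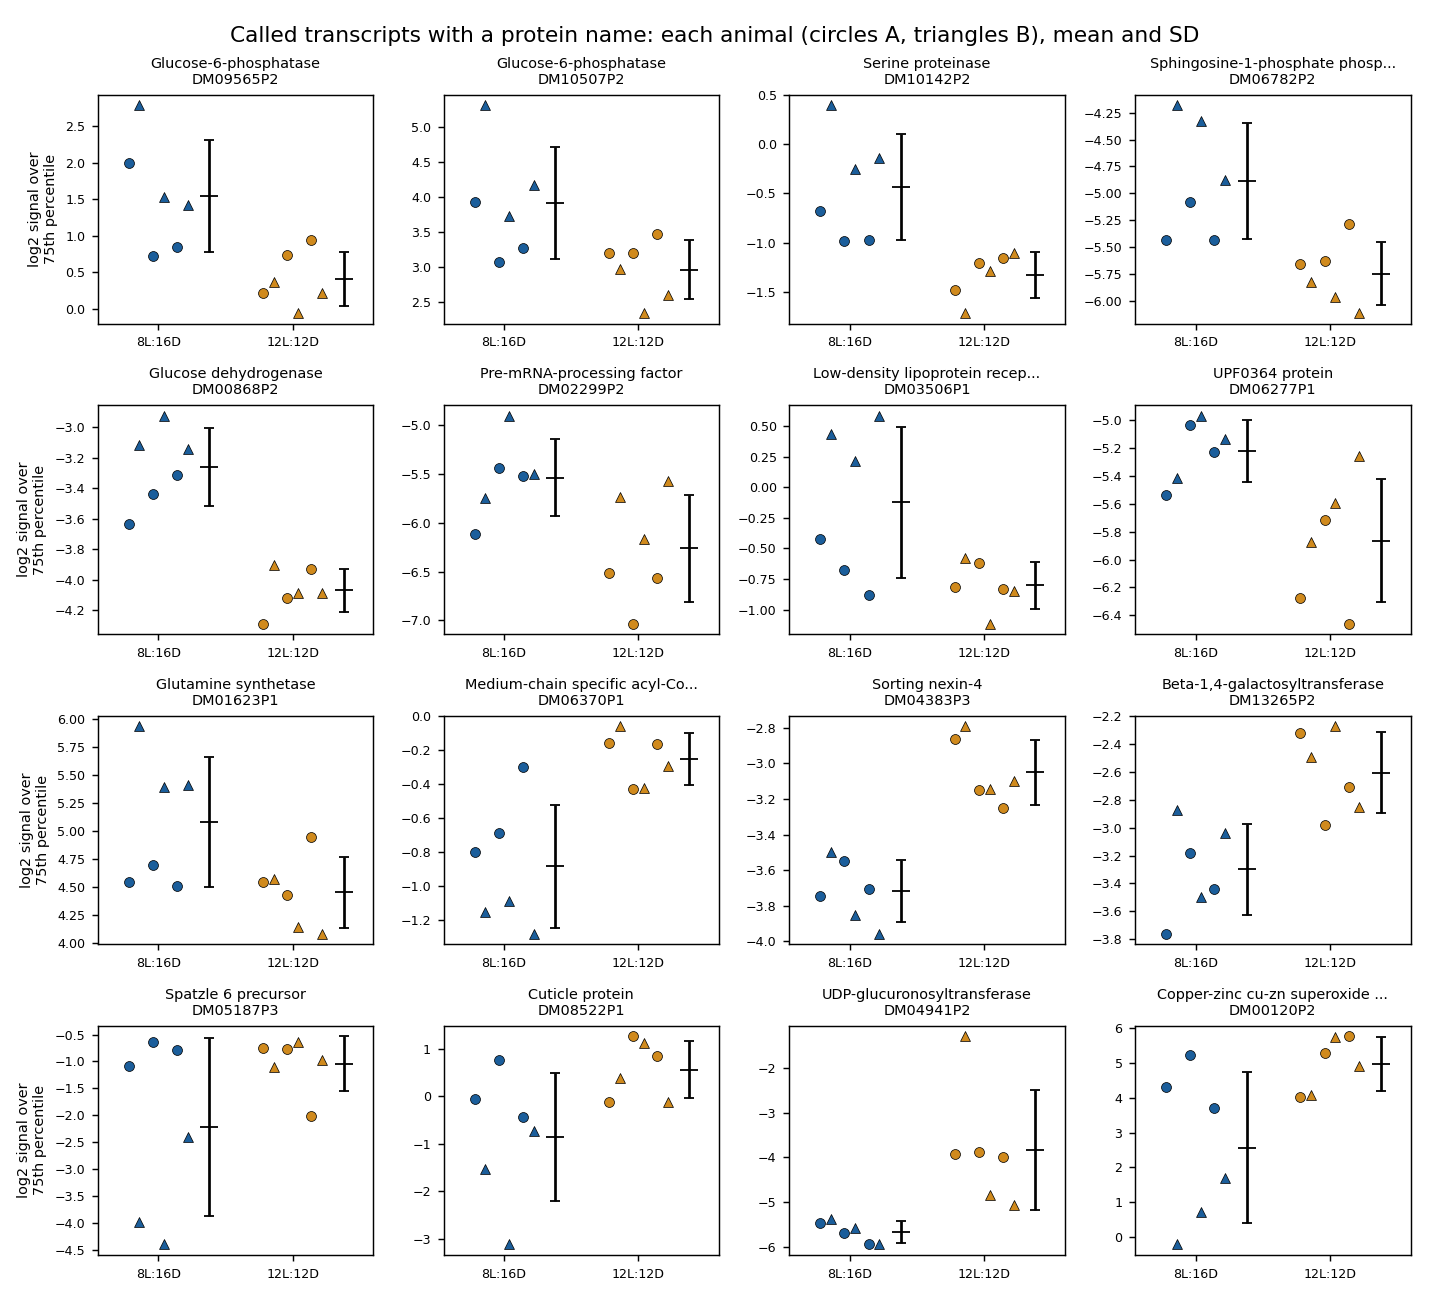
Level of each animal (log2 signal over the 75th percentile of its array) for 16 called transcripts with a protein name, with circles for animals A and triangles for animals B in order of chamber, and the mean with SD of the 6 animals to the right. Glucose dehydrogenase, serine proteinase, sorting nexin-4 and UDP-glucuronosyltransferase did not overlap between photoperiods, while the copper-zinc superoxide dismutase-like protein was lowest in the 3 B animals of 8L:16D.

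Transcripts without a protein name held the smallest p and the largest called differences. The hypothetical protein DM15253P2 had the smallest p of all probes, with levels from -5.74 through -5.56 to -4.84 in 8L:16D and from -4.66 through -4.11 to -3.89 in 12L:12D. The animals did not overlap. It was 2.42-fold higher in 12L:12D (log2 difference -1.28 ± 0.17 SE, limma adjusted p = 0.231) and was called under 21 of 22 alternatives, with -0.33 under the normexp correction. It was well above background on 5 of the 6 arrays of 8L:16D. Its means were -5.46 ± 0.33 and -4.18 ± 0.29, and outside the comparison -6.01 ± 0.52 under 4L:20D, -3.65 ± 0.31 in the 16 h light control and -3.46 ± 0.25 in 20L:4D (SD, 6 animals each), so that the 5 means stood in the order of day length. Neighbouring means of 16 h and 20 h light differed by less than 1 SD. Not all called transcripts kept such an order. From the shortest to the longest day, the means of glutamine synthetase were 5.76, 5.08, 4.45, 4.59 and 5.41. Those of the superoxide dismutase-like protein were 3.19, 2.57, 4.97, 1.65 and 0.86.

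Of the other transcripts with the 5 smallest p-values, DM11627P3 and DM01107P1 were high in the B animals of 8L:16D (log2 differences 1.16 ± 0.18 and 1.01 ± 0.17). Without animals 1B and 2B these were 0.61 and 0.56 and were not called, and the call of DM11627P3 was also lost with photoperiod alone. The transcript DM03577P1 was not well above background on any of the 12 arrays, so no fold is given for it. The largest unnamed differences upward were 1.92 ± 0.56 (DM05299P4), 1.85 ± 0.32 (DM05556P1), 1.73 ± 0.43 (DM07090P2) and 1.72 ± 0.39 (DM08796P3). The calls of DM05299P4 and DM07090P2 were lost without chamber 1 (1.65 and 1.48) or 2 (1.75 and 1.48) of 8L:16D or chamber 1 of 12L:12D (1.22 and 1.34), and those of DM05299P4 and DM08796P3 with photoperiod alone. In all 4 transcripts each B animal of 8L:16D lay above the A animal of its chamber. The means of A and B animals were -1.73 and 0.36 for DM05299P4, -1.91 and -0.10 for DM07090P2, and -1.91 and 0.55 for DM08796P3, and without animals 1B and 2B the differences were 1.11, 0.98 and 0.92 and were not called. DM05556P1 was at 4.38, 3.25 and 2.82 in the A animals and at 6.14, 5.22 and 4.99 in the B animals of 8L:16D against 2.01 to 3.50 in 12L:12D. Its call held under 20 of 22 alternatives, all but slide as a block and the removal of animals 1B and 2B (1.24).

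Downward, the unnamed transcripts DM06764P2, DM02830P1, DM04822P1 and DM03998P3 differed by -3.02 ± 0.86, -2.97 ± 0.58, -2.49 ± 0.72 and -2.21 ± 0.66 (limma adjusted p = 0.497, 0.321, 0.506 and 0.547). DM06764P2 took only high or low values. It was between -8.69 and -8.20 in 5 animals of 8L:16D and at -4.38 in animal 2A, and between -4.81 and -3.67 in 5 animals of 12L:12D and at -8.01 in animal 1B. It was well above background on 1 array of 8L:16D and 5 of 12L:12D, so its low values are background signal and the size of its difference is not a measured fold. DM04822P1 had 5 of 6 animals of 8L:16D below all of 12L:12D and animal 2A at -2.89, within the range of 12L:12D from -3.69 to -1.74, and was well above background on 3 of the 6 arrays of 8L:16D. DM02830P1 followed the pattern of the superoxide dismutase-like protein, with 2.42, 3.11 and 1.66 in the A animals and -3.69, -3.37 and -0.67 in the B animals of 8L:16D, against 1.77 to 3.73 in 12L:12D, and a difference of -1.25, not called, without animals 1B and 2B. Its call was also lost with photoperiod alone. The call of DM06764P2 was lost without chamber 1 or 3 of 8L:16D (-2.71 and -2.65) or chamber 2 or 3 of 12L:12D (-2.52 and -2.88). That of DM04822P1 was lost without chamber 1 of 8L:16D (-1.69) or any chamber of 12L:12D (-2.01, -2.82 and -2.65), and that of DM03998P3 without chamber 1 or 3 of 8L:16D (-1.76 and -1.88) or any chamber of 12L:12D (-2.42 to -1.996). Without animals 1B and 2B of 8L:16D these 3 differed by -2.74, -1.95 and -2.22 and were not called.

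On the slides that held both photoperiods, the sign could be read within a slide. On the slide with animal 1A of each photoperiod, 143 of the 172 called transcripts (83.1%) had the same sign as in the whole comparison, against 69.6% of all probes. On the slide with animal 3A of 8L:16D and the 3 B animals of 12L:12D, 146 (84.9%) did, against 62.5% of all probes. These arrays also entered the whole comparison. Within the slides, glucose dehydrogenase was higher in 8L:16D by 0.65 and 0.71 and DM15253P2 lower, at -1.42 and -1.29. Sorting nexin-4 was at -0.88 and -0.69 and UDP-glucuronosyltransferase at -1.55 and -2.21. The superoxide dismutase-like protein was at 0.27 and -1.20, so that its sign turned on the first. With slide as a block, where the difference is estimated on these slides alone, glucose dehydrogenase, DM15253P2, DM03998P3 and beta-1,4-galactosyltransferase stayed called among the named transcripts.

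None of the transcripts found by name for timekeeping and light detection was called. The study also names a blue wavelength opsin, further gprop1 entries and a further period entry, which the keyword match did not find. The 2 probes named period circadian protein had levels from -2.73 through -2.34 to -1.93 in 8L:16D and from -2.65 through -2.21 to -1.41 in 12L:12D (DM09904P4), and from -5.07 through -4.76 to -4.24 and from -4.92 through -4.64 to -3.96 (DM14516P3). Both overlapped between the photoperiods, with differences of -0.21 ± 0.23 (limma adjusted p = 0.826) and -0.10 ± 0.20 (limma adjusted p = 0.91). The F-box/LRR-repeat protein (DM09476P2), of a family that marks proteins for destruction and includes clock regulators in flies and mammals, differed by 0.02 ± 0.23. A nuclear receptor of subfamily 1 group D (DM00285P3) differed by -0.47 ± 0.37. The 2 opsins found by name, gprop1 (DM06155P2) and gprop2 (DM12611P4), differed by 0.04 ± 0.14 and 0.10 ± 0.16. None of the 5 members of the clock and F-box list and neither opsin reached an unadjusted p of 0.05.

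In sex determination, transformer (DM06854P1) and transformer-2 (DM11280P1), which in insects steer sex-specific splicing, differed by -0.14 ± 0.25 and -0.04 ± 0.16, and neither was called. Of the transcripts of glutamate, the main excitatory transmitter of arthropod muscle, the kainate receptor DM10654P3 lay just outside the threshold, with levels of -5.07, -4.61 and -4.38 in 8L:16D, of -4.46, -4.15 and -3.64 in 12L:12D, and a difference of -0.51 ± 0.16 (limma adjusted p = 0.564). A further kainate receptor, DM10810P1, had an estimate of the opposite sign, 0.97 ± 0.40 (limma adjusted p = 0.678). Glutamate decarboxylase (DM00966P3), which makes the inhibitory transmitter GABA, differed by -0.04 ± 0.21.

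The egg and yolk list had 8 members, of which 6 were higher and 2 lower in 8L:16D, with a median difference of 0.43 and only the vitellogenin fusion called. That median was 0.10 without animals 1B and 2B of 8L:16D and 0.15 without chamber 1 of 8L:16D or chamber 2 of 12L:12D. The mean level over its members overlapped, running from -3.44 to -1.43 in 8L:16D and from -3.29 to -2.36 in 12L:12D. Among the chorion peroxidases, which harden the egg shell in insects, DM03869P1 was well above background on no array of 12L:12D and 5 of 8L:16D. Levels of 12L:12D under the lowest signal well above background of their array were raised to it. Against those raised levels the mean of DM03869P1 in 8L:16D was 1.54-fold higher (limma adjusted p = 0.686 for the measured difference). That mean includes an array not well above background, so the fold is not a strict lower bound. Only 2 of the 6 animals of 8L:16D lay above all of 12L:12D, and animal 2B was at -3.40 against -5.15 in the next. DM08907P2 and DM03972P1 differed by 1.31 ± 1.35 and -0.40 ± 0.42, and DM08909P1 was well above background on 1 array of 8L:16D and none of 12L:12D, so no fold is given for it. The vitelline membrane proteins DM11500P2 and DM06044P1 differed by 0.65 ± 0.75 and 0.21 ± 0.22.

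Cuticle, chitin and collagen had the lowest median of all 19 lists, -1.04, with 12 of 17 members lower in 8L:16D and 1 called. The mean level over its members was -2.89 and -2.64 in animals 1B and 2B of 8L:16D, against levels from -0.56 to -0.04 in the other 4 animals and -0.66 to -0.26 in 12L:12D. Without these 2 animals the median of the list was 0.31 with 12 of 17 members higher, and with a chamber left out it ran from -1.54 (without chamber 3 of 8L:16D) to -0.45 (without chamber 2 of 8L:16D). Beside the called cuticle protein, the members with the lowest values were a chitinase (DM07224P1, -2.26), which breaks down chitin, and collagen IV alpha 1 chain-like probes between -1.62 and -1.34 (DM05282P3, DM00434P4, DM12010P3 and DM05719P1), none of which reached an unadjusted p of 0.05. Cuticular proteins DM05769P2 and DM12209P2 differed by -0.21 ± 0.42 and -0.59 ± 0.83, cuticle protein DM12885P2 by 0.61 ± 0.55 and endocuticle structural glycoprotein SgAbd-2 (DM06037P2) by 1.31 ± 0.74.

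In carbohydrate and lipid metabolism 10 of 19 members were higher and 9 lower in 8L:16D, with a median of 0.01 as over all probes (-0.23 without chamber 1 of 12L:12D), 2 called higher (the glucose-6-phosphatases) and 1 lower (medium-chain acyl-CoA dehydrogenase). Phosphoenolpyruvate carboxykinase (DM01903P2), another enzyme of glucose production, differed by 0.34 and was not called. Of 17 members of the digestive hydrolase list 7 were higher and 10 lower, and the serine proteinase was the only one called. This list, drawn by keywords, also held a glycogen debranching enzyme, lysosomal alpha-glucosidases and a neutral alpha-glucosidase, all with positive differences. Detoxification enzymes had 7 of 15 members higher and 1 called, the UDP-glucuronosyltransferase, and a second UDP-glucuronosyltransferase (DM13422P1) differed by -0.91 and was not called. Oxygen transport and iron had no called member, with 2 of 4 higher.

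Of 23 proteasome members 19 were higher in 8L:16D, with a median of 0.14. All probes had a median of 0.01, and the study's table, from which the lists were drawn, had -0.05. The members are probes, and some subunits, such as 26S protease regulatory subunits 6A and 6B, were measured by several. With a chamber left out the median ran from 0.06 (without chamber 2 of 12L:12D) to 0.22 (without chamber 1 of 12L:12D) and between 13 and 21 members were higher. The subunits alpha type-4 (DM02033P1) and beta type-3 (DM02780P1) responded below 1.5-fold. For DM02033P1, a subunit of the core particle that degrades proteins, levels ran from -2.35 through -1.99 to -1.74 in 8L:16D and from -2.72 through -2.56 to -2.19 in 12L:12D, with 5 of 6 animals above the other range and a difference of 0.51 ± 0.14 (limma adjusted p = 0.487). The mean level over the proteasome list nevertheless overlapped, from -0.83 to -0.44 in 8L:16D and from -0.96 to -0.54 in 12L:12D. Chaperones had 9 of 13 higher (median 0.13, or 0.01 without chamber 2 of 12L:12D), with no member called. Among them the T-complex protein 1 subunit beta probe DM01996P4 was well above background on 3 arrays of 8L:16D and on none of 12L:12D. Its levels rest in part on background signal in both photoperiods, so no fold is given for it (limma adjusted p = 0.564). Further probes of that name, DM00208P2, DM00396P1 and DM13217P1, differed by 0.13, 0.24 and -0.31, and none was called. Translation factors and tRNA ligases had 12 of 19 higher (median 0.11, or -0.06 without chamber 3 of 8L:16D), with phenylalanine-tRNA ligase alpha (DM00156P3) responding at 0.48 ± 0.15. This list, drawn by keywords, included subunits of the transcription initiation factor TFIID, DM03075P1 (0.31) and DM03747P3 (-0.10).

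The spliceosome list had 8 of 16 members higher (median -0.02) and the pre-mRNA-processing factor called. Ribosome biogenesis had 11 of 22 higher (median 0.01), with fibrillarin (DM13190P2), which methylates ribosomal RNA, responding at -0.50 ± 0.15. DNA replication and cell division, active in embryos and other dividing tissue, had 5 of 10 higher (median 0.06), histones 3 of 5 (median 0.02), the exosome and RNA decay 3 of 4 (median 0.21) and mitochondrial respiration 1 of 4 (median -0.10), none with a called member. The mitochondrial list included DM04041P1 (-0.05) through its earlier name. Its newer name is small nuclear ribonucleoprotein E, and it was also counted in the spliceosome list. Levels over the members of DNA replication and cell division ran from -2.73 to -2.12 in 8L:16D and from -2.68 to -2.37 in 12L:12D, and those of the histones from -2.71 to -2.20 and from -2.50 to -2.12. In 12 of the 19 lists the median took the other sign when at least 1 single chamber was left out, so no direction is read from those lists. The medians of sex determination and of cuticle, chitin and collagen turned without animals 1B and 2B of 8L:16D (0.008 and 0.31). No direction is read from these either.

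**Figure D5:**
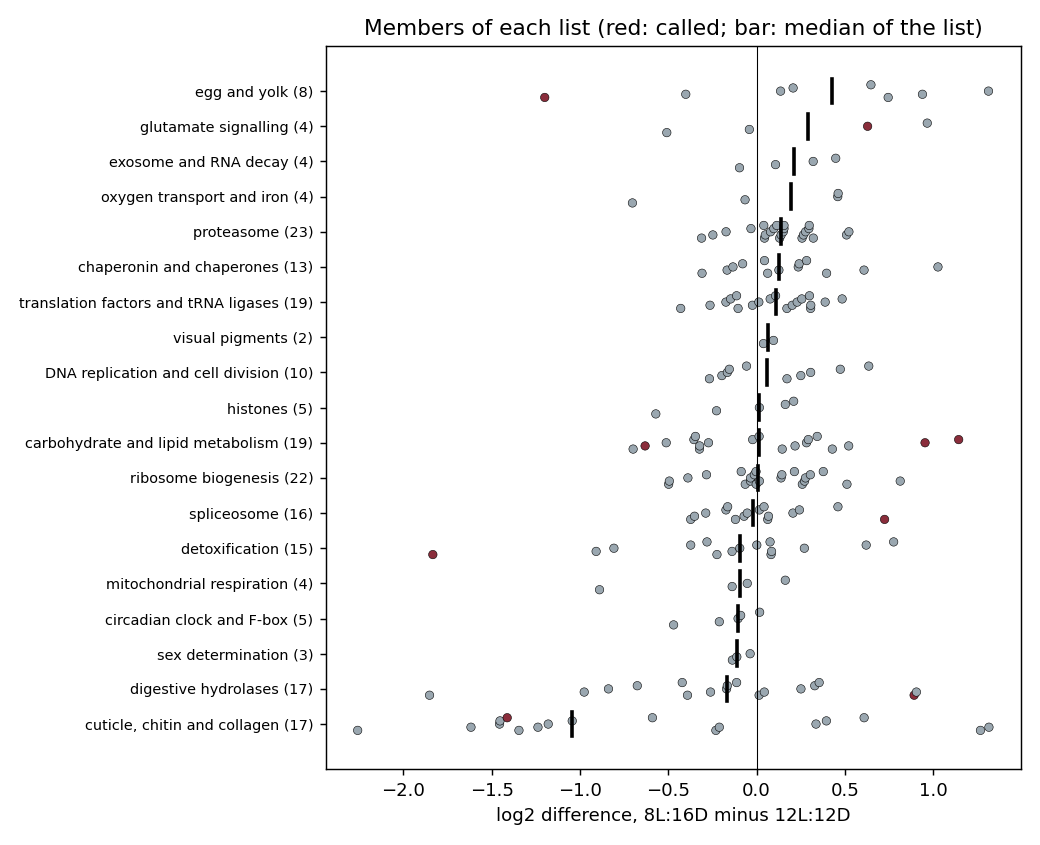
Log2 difference (8L:16D minus 12L:12D, horizontal axis) of each member of the 19 lists, with the number of members in parentheses, called members in red and the list median as a black bar. The medians lie between -0.17 and 0.43 except that of cuticle, chitin and collagen, at -1.04, which was 0.31 without animals 1B and 2B of 8L:16D.

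Set beside the other pairs of photoperiods, each fitted on its own 12 arrays in the same way, this pair gave few responding transcripts. Only the 16 h and 20 h light days gave fewer (178, 1.24%), while 4L:20D gave 386 (2.69%) against 8L:16D, 892 (6.22%) against 12L:12D, 1977 (13.8%) against the 16 h light control and 354 (2.47%) against 20L:4D. Against the 16 h light control, 8L:16D gave 527 (3.68%) and 12L:12D gave 2323 (16.2%), and against 20L:4D they gave 379 (2.64%) and 1599 (11.2%). These pairs share animals with each other and were not tested for a difference in their counts.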

How the data were processed

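Each array held RNA of 1 *D. magna*. The authors extracted the spots with Agilent Feature Extraction, version 9.5.1 by their notes and 10.7.3.1 by the file headers. The deposited processed signal is an intensity, background-subtracted and not scaled between arrays. The authors also deposited log2 values scaled to the 75th percentile and to a median per probe in GeneSpring, used here only as an alternative. Control and outlier spots were removed, spots of a probe averaged, and log2 signals set relative to the 75th percentile of their array. Fits used limma 3.58.1 in R 4.3.3, lists and permutations Python 3.11.15. The letter stands for the population subsample, taken here as the second factor of the two-way analysis of the study. Whether the study coded it by letter or by chamber number is not given in the sources used here. On simulated data with 200 changed transcripts among 14283, 168 were called, all in the right direction. The simulated noise was independent between arrays, without chambers or slides, and the changes were of log2 1 to 2. At log2 1, 71.4% were called, and 0.859% of unchanged transcripts had an unadjusted limma p under 0.01. Smaller differences were not simulated.

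Named transcripts were the 12 largest called differences per direction with a protein name, at least 6 arrays well above background and separate chamber means, the 4 largest per direction without a name, the 5 smallest p-values, the smallest p of each list, and transcripts of clock, opsin, sex determination, glutamate, egg and cuticle names. Lists were drawn by keywords in the earlier and newer names, so some hold members of another function and some share a member. Members, lists and tests were chosen with earlier results of these data known. Animals of a chamber shared it, so p-values over animals measure partly the spread within chambers.

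Alternatives were the 30 arrays together, photoperiod alone, chamber number in place of the letter, chamber as a random block or averaged, a block for chamber number or for slide, quantile scaling of the arrays, the normexp correction of background (offset 50), a filter and a floor on dim probes, the deposited log2 values, an unmoderated test, a 2-fold threshold, 2 axes of the spread within photoperiods or the spike-in mean as covariates, and each chamber left out. Slide and scan coincided, so scan was not run separately. The columns of the study's comparisons in its probe table were not used.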

Additional observations from a re-analysis of the deposited data

Results flagged for a closer look

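Of 126 groups of 6 animals examined (the named transcripts and the first 2 components, in each photoperiod), 7 held an animal whose gap to the next, as a share of the range of the group, passed Dixon's critical value. Chance flags about 1 in 20 groups, so no pattern is read from their number.

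The unnamed transcript DM06764P2 held such an animal in both photoperiods, with animal 2A of 8L:16D at -4.38 where the next was at -8.20, and animal 1B of 12L:12D at -8.01 where the next was at -4.81. UDP-glucuronosyltransferase (DM04941P2) was at -1.30 in animal 1B of 12L:12D against -3.87 in the next. Spatzle 6 (DM05187P3) was at -2.01 in animal 3A of 12L:12D, the lowest, against -1.11. Chorion peroxidase DM03869P1 was at -3.40 in animal 2B of 8L:16D against -5.15, and at -7.62 in animal 1A of 12L:12D, where no array was well above background, against -6.28. Period circadian protein DM14516P3 was at -3.96 in animal 1A of 12L:12D against -4.56 in the next, while the other period probe held no such animal.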

How the results depend on the processing

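Against 248 responding transcripts, the count was 128 with chamber means, 119 with slide as a block, 863 with floored signals, 767 with 2 axes of the within-photoperiod spread as covariates, and 131 (without chamber 3 of 12L:12D) to 550 (without chamber 3 of 8L:16D) with a chamber left out. The axes were computed from the residuals of the same fit, so their p-values are too small. Against 172 called, it was 98 with photoperiod alone, 111 with chamber number in place of the letter, 54 with normexp, 569 with the 2 axes, 63 at 2-fold, 102 without animals 1B and 2B of 8L:16D, and 120 to 500 with a chamber left out. With the chamber number as a replicate block, 168 responded and 96 were called. The numbers do not pair the chambers, since same-numbered chambers deviated with correlations of -0.29, 0.38 and -0.29. Slide as a block shared 14 of its 119 calls with the 172. Counts past an adjusted p of 0.05 were 1 with all 30 arrays, 3 with quantile normalization, 111 with the 2 axes and 0 to 58 with a chamber left out (58 without chamber 3 of 8L:16D), and 0 under every other alternative. The share of calls higher in 8L:16D was 66.9%, against 40.3% with slide as a block, 35.1% with the 2 axes, 51.3% with chamber means, 43.1% without animals 1B and 2B, and 47.0% to 73.3% with a chamber left out. Letter responses were 26 with normexp, 42 with the filter, 45 with the floor and 29 to 145 with a chamber left out, and interaction responses 290 where chamber was a random effect, 262 with the floor and 55 to 452 with a chamber left out. The causes were not tested.

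The distance between mean profiles stayed between 49.5 and 75.8 units, with exact p from 0.1 (without chamber 1 of 12L:12D) to 0.7. Of 29 called named transcripts, 12 stayed called with each chamber left out, 17 with photoperiod alone and 6 without animals 1B and 2B. One sign turned, for DM03577P1 with floored signals (-0.27), where every array is at its floor. In 44 of 418 list medians under alternatives the sign differed. Probes under background and 12 animals in 6 chambers limit what could be detected.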
